A study of Mus musculus with 32 samples.

Results

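Oxidative phosphorylation is carried out by 5 protein complexes of the inner mitochondrial membrane, and 84 of the 34223 genes in the deposited table were taken as the nuclear genes for their subunits. They were chosen by symbol: Nduf followed by a, b, c, s or v and a number, Sdha to Sdhd, and symbols that begin with Uqcr, with Cox and a number from 4 to 8, or with Atp5. The pattern matched 86 symbols, and 2 with the ending -ps, which marks pseudogenes, were left out. The set held 37 genes of complex I, 4 of complex II, 8 of complex III, 18 of complex IV and 17 of complex V, and all are annotated as protein coding. The symbol pattern itself uses no measured levels, but the genes were chosen with earlier results of these data known. The symbols are wider than the complexes in a few places: Ndufa4 and its paralog Ndufa4l2 are now placed with complex IV, Cox7a2l helps join complexes into larger assemblies, and Atp5s and Atp5sl are not stable subunits of ATP synthase.

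All 32 libraries are single wild-type mouse embryos of the late 2-cell stage, taken 28 h after in vitro fertilization. Every embryo received an injection of H3.3-GFP mRNA, which encodes a histone variant joined to green fluorescent protein, and GFP-positive embryos were kept. The 16 Val_LNA embryos were given, in the same injection, an antisense oligonucleotide with locked nucleic acid (LNA) bases against tRFValCAC, a piece of a valine tRNA, and the 16 Ctrl_LNA embryos a scrambled LNA oligonucleotide. No uninjected embryos were compared. The labels give no strain, mating or injection day, and a p-value therefore speaks only of the spread among these embryos, which may be technical. A value from a whole embryo is a sum over its cells, so fewer expressing cells and less RNA per cell cannot be told apart.

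Complexes I and II take electrons from NADH and from succinate, complex III passes them to cytochrome c, and complex IV hands them to oxygen. Complexes I, III and IV pump protons, and the flow of protons back through complex V, the ATP synthase, drives ATP synthesis. The subunits come from both the nuclear and the mitochondrial genome except in complex II, which is wholly nuclear, and the early embryo relies on mitochondria inherited from the egg.

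Recovered read totals lay between 2592925 and 6259870 per embryo. In 31 of the embryos 73 to 82 of the 84 genes had at least 1 read. The control embryo with library number 48 (Ctrl_LNA 48) stood apart, with reads for 43 of them, and results are therefore given with and without it. Markers of the 2-cell embryo (8 of 8 tested) and of the oocyte (8 of 8 tested) were present. None of the 16 was called by limma or edgeR. The 2-cell markers had a median log2 fold change of 0.90 (0.60 without Ctrl_LNA 48), beside 0.26 (0.07) over all tested genes. Of these 8 markers 3 (37.5%) had an unadjusted p under 0.05 in limma, beside 14.7% of all tested genes. These 3 did not share a direction: Zfp352 (0.62) and Usp17lc (1.32) were higher in Val_LNA and Obox6 (-0.95) was lower. DESeq2 called Zscan4c and Zscan4f with all embryos, where 1.32% of all tested genes were called higher and 2.17% lower. Without Ctrl_LNA 48 it called Zscan4c alone, beside 1.71% higher and 2.58% lower. The oocyte markers had a median of 0.73 (0.34 without Ctrl_LNA 48), with Khdc3 alone below 0 (-0.48 with all embryos). The part of these marker differences in the results below was not tested. Of 8 markers of cumulus and granulosa cells 7 had a median of 0 over the other 31 embryos, Has2, Fshr and Foxl2 among them, and of 6 sperm markers 5 did. The summed cumulus markers ranged from 0 to 138.9 normalized counts in Val_LNA (median 34.8) and from 0 to 64.1 in Ctrl_LNA without 48 (median 15.5). Tnfaip6, the 1 of them that was tested, had medians of 23.2 and 2.71 (log2 fold change 2.03, limma adjusted p = 0.107), and the part of these cells was likewise not tested.

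Together the 84 genes took up 0.479% ± 0.0704 of the normalized counts of a Val_LNA embryo (SD, n = 16, range 0.394% to 0.621%). In Ctrl_LNA embryos they took up 0.468% ± 0.0683 (SD, n = 16), and 0.471% ± 0.0694 without embryo 48 (SD, n = 15, range 0.344% to 0.586%). The groups overlapped over most of their range. The 13 subunits encoded in mitochondrial DNA took up 2.65% ± 0.512 in Val_LNA and 2.41% ± 0.375 in Ctrl_LNA without 48. These ranges also overlapped. The mitochondrial share holds almost nothing of mt-Co2, mt-Atp6 and mt-Atp8. Their mean normalized counts were 2.59, 2.30 and 0.281 in Val_LNA and 1.87, 1.46 and 0.295 in Ctrl_LNA without 48. For mt-Co3 the means were 38.9 and 29.1, beside 31080 and 25310 for mt-Co1.

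Levels of different genes were compared per kb of annotated exon, to allow for the effect of transcript length on read counts. This length includes retained introns and need not be that of the expressed transcript, so several orders below changed with the length used. Complex IV held the largest share of the summed level per kb in 31 of the 31 embryos other than Ctrl_LNA 48, with 41.8% ± 4.89, followed by complex I with 25.4% ± 1.79, complex V with 21.4% ± 2.91, complex III with 9.0% ± 2.41 and complex II with 2.45% ± 0.826 (SD, n = 31 for each). These shares are sums over 18, 37, 17, 8 and 4 genes, in that order, and so depend on the number of genes. Within complex IV, Cox8a alone had 2255 per kb, where the median gene had 101. Ndufa4 was counted with complex I by its symbol. With the longest coding transcript as the length, complex IV remained the largest in the same number of embryos, at 40.2% ± 4.12, while complex V, at 26.2% ± 3.10, came before complex I, at 23.4% ± 1.90. The share of complex I was 26.2% ± 1.53 in Val_LNA (n = 16) and 24.6% ± 1.68 in Ctrl_LNA without 48 (n = 15), which overlapped between 22.8% and 28.7%. Every other complex also overlapped between the groups.

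The gene with the highest level of all 84 was Cox8a, a small transmembrane subunit of complex IV. Its normalized count ran from 730.3 to 3553 in Val_LNA (median 1290.0) and from 682.9 to 1716 in Ctrl_LNA without 48 (median 1062), a mean of 2255 per kb over the 32 embryos. Atp5b, the catalytic beta subunit of ATP synthase, came next with 873 per kb, and then Cox6b2, the Cox6b form best known from testis, with 507 per kb. By exon length the highest within complex I were the accessory subunits Ndufa2 (431 per kb) and Ndufb6 (389 per kb), and 39% of the exon bases of Ndufb6 also belong to another gene. In complex III they were Uqcrfs1, the Rieske iron-sulfur protein (305 per kb), and Uqcr11 (227 per kb), and in complex II Sdha, the flavoprotein (125 per kb), and Sdhd, a membrane anchor (83.3 per kb). The median gene of a complex stood at 42.5 per kb in complex I, 64.1 in V, 70.3 in II, 91.2 in III and 101 in IV. These medians did not keep their order when the longest coding transcript was the length (71.2 in I, 97.9 in II, 146 in V, 194 in IV and 209 in III), but complex I was lowest under both. The order of single genes also turned with the length. By the longest coding transcript the highest of complex I was Ndufa4 (735 per kb, attached to complex IV), Uqcr11 (327) stood above Uqcrfs1 (305) in complex III, and Sdhb (112) stood above Sdhd (83.3) in complex II, while Cox8a (2538) and Atp5b (1930) remained the highest of complexes IV and V.

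**Figure D1:**
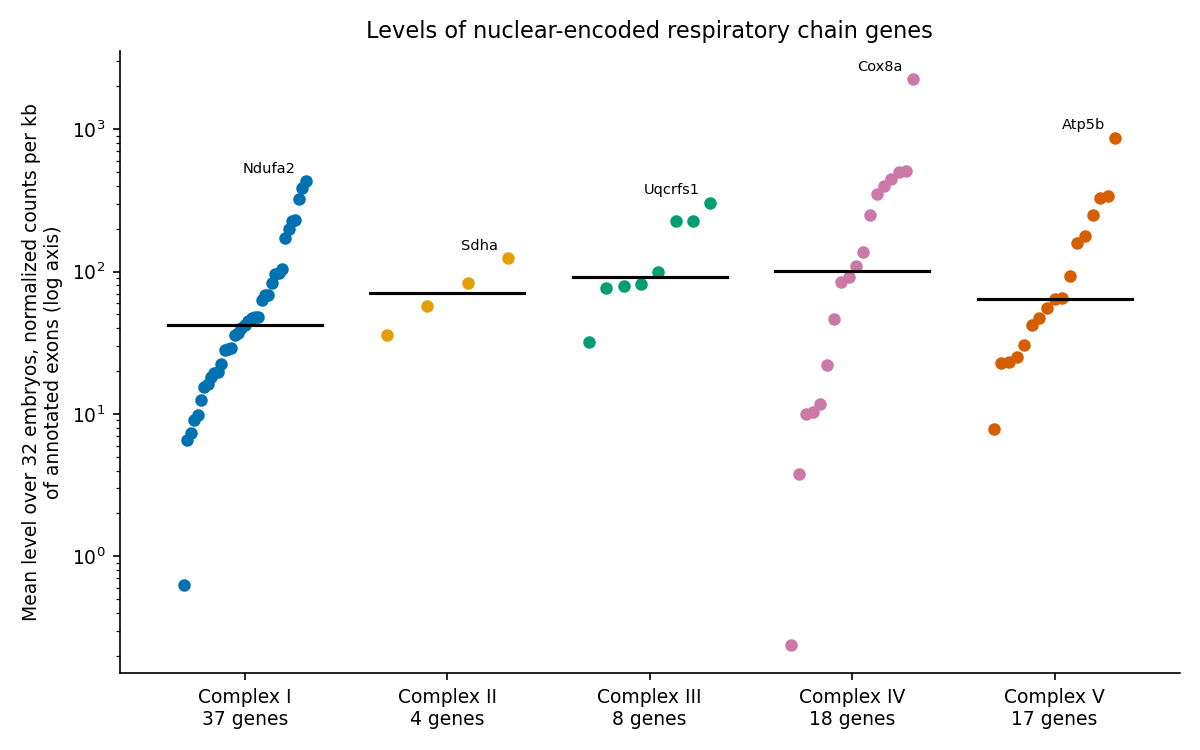
Mean level of each of the 84 genes over the 32 embryos, in normalized counts per kb of annotated exon on a log axis, by complex. Each point is 1 gene, each black line the median of a complex, and the highest gene of each complex is named, with Cox8a at 2255 per kb above all others.

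Subunits of 1 complex, which the assembled enzyme holds in fixed ratios, differed widely at the RNA level. In ATP synthase the 2 genes of the catalytic F1 head, Atp5a1 and Atp5b, had 330 and 873 per kb, while the 3 genes of the F1 central stalk ran from 23.2 (Atp5e, epsilon) through 55.8 (Atp5d, delta) to 339 per kb (Atp5c1, gamma). With the longest coding transcript as the length the head genes had 387 and 1930 per kb, and the stalk genes ran from 76.3 (Atp5d) through 96.7 (Atp5e) to 373 (Atp5c1), so that Atp5d and Atp5e changed places. The 4 peripheral stalk genes, which keep the head from turning with the rotor, lay between 64.1 and 178 per kb of exon, or between 218 and 454 by the coding transcript. In complex I the 7 genes of the electron path ran from 12.6 to 231 per kb and the 28 accessory genes from 6.58 to 431 (38.1 to 297 and 10.7 to 431 by the coding transcript). Embryos varied least in Cox5a, a matrix-side subunit of complex IV, with a coefficient of variation of 17.5% in Val_LNA and 16.4% in Ctrl_LNA without 48, and in Atp5b, with 19.1% and 18.7%. The median coefficient over the tested genes was 61.2% in Val_LNA and 51.2% in the controls, beside 72.1% and 67.3% over all tested genes, and it was lowest in complex IV for Val_LNA (47.7%) and in complex V for the controls (34%).

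Several subunits exist as paralogs, 1 of which is the common form and the other a form of muscle, testis or low oxygen. In most sets 1 gene held nearly all of the level per kb, here with the longest coding transcript as the length and over the 31 embryos without Ctrl_LNA 48. Cox4i1 held 96.2% ± 2.57 against the lung and hypoxia form Cox4i2, Cox6a1 held 98.1% ± 2.68 against the heart and muscle form Cox6a2, Cox8a held 99.8% ± 0.355 against Cox8b and Cox8c, and Ndufa4 held 99.8% ± 0.515 against Ndufa4l2. Cox7a2 held 87.6% ± 7.03 of a set with the muscle form Cox7a1 (2.31% ± 2.10) and Cox7a2l (10.1% ± 6.79). Cox8b had no reads in any Val_LNA embryo and reads in 2 Ctrl_LNA embryos.

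In the Cox6b pair of complex IV both genes were abundant. Cox6b2 held 65.3% ± 12.8 of the pair and was above Cox6b1, the form of most tissues, in 27 of 31 embryos; by the union of exons it held 54.1% ± 13.9 and was above in 21 of 31. In Val_LNA its share ran from 54.0% to 86.3% (median 66.5%) and in Ctrl_LNA without 48 from 35.2% to 86.7% (median 67.5%), so that the groups overlapped. Ctrl_LNA 48 had no reads for Cox6b2 and a normalized count of 474.7 for Cox6b1. The c subunit of the ATP synthase rotor, for which 3 genes encode the same mature protein, came mainly from Atp5g1, with 59.7% ± 12.7 of the set, followed by Atp5g2 with 24.1% ± 12.0 and Atp5g3 with 16.2% ± 6.69.

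**Figure D2:**
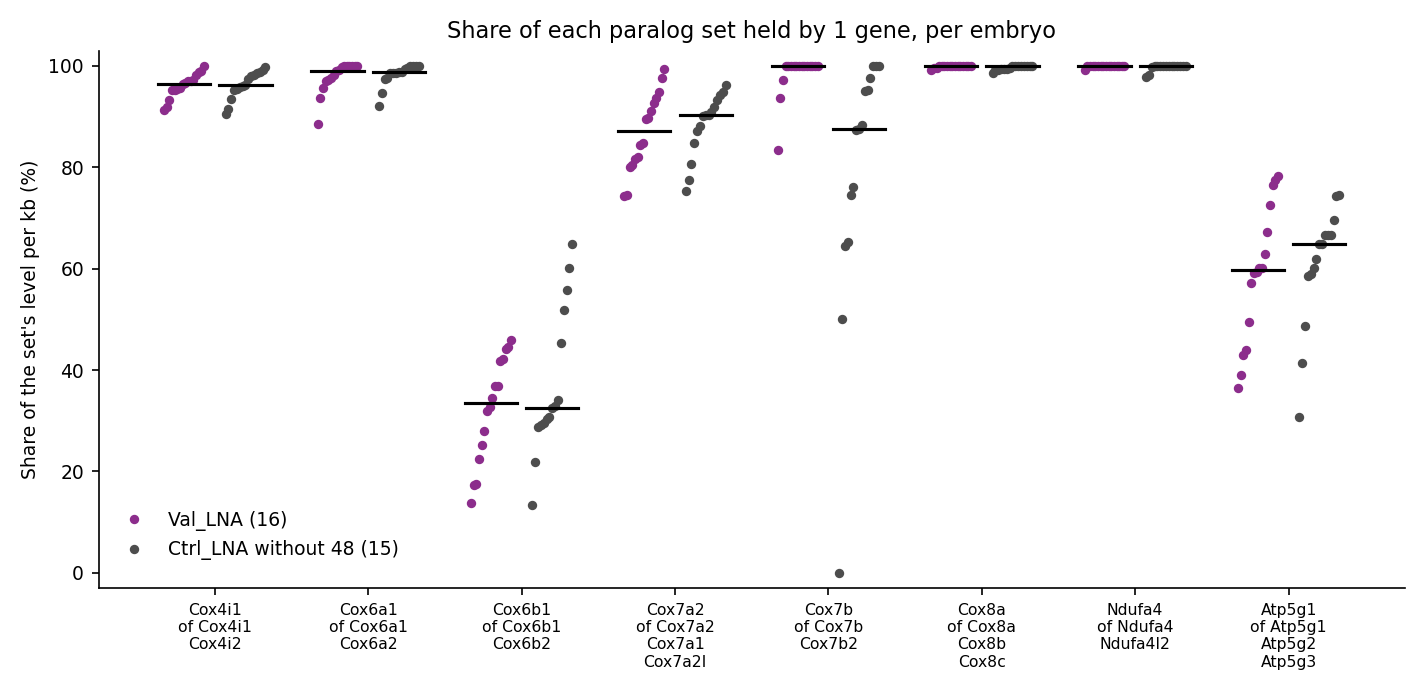
Share of a paralog set's summed level per kb of longest coding transcript held by the gene named first on the axis, in percent, with 1 point for each Val_LNA embryo (16) and each Ctrl_LNA embryo without 48 (15) and a black line at the median. Cox6b1 and Atp5g1 share their sets with other members, while Cox8a and Ndufa4 lie near 100%.

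Of the 84 genes 79 passed the filter on low values, which asked for 8 or more embryos with a normalized count of 10 or more, and were tested. The 5 that did not are Ndufa4l2, Cox6a2, Cox7b2, Cox8b and Cox8c. Genes are named as called where limma's p, adjusted by Benjamini-Hochberg over the 15559 genes tested, was under 0.05. With all 32 embryos, 1 of the 79 genes was lower in Val_LNA, Atp5d, and 0 were higher, where 1.31% of all tested genes were lower and 0.881% higher. At an unadjusted p under 0.05 there were 9 of 79 (11.4%), beside 14.7% of all tested genes. On the recovered reads edgeR called 0 in either direction (background 0.186% higher and 1.05% lower), and DESeq2 called Atp5d lower and 0 higher (background 2.17% lower and 1.32% higher). Without Ctrl_LNA 48, limma called Atp5d lower and Ndufa1 higher, where 2.61% of all genes were lower and 1.58% higher, and 9 of 79 (11.4%) had an unadjusted p under 0.05 beside 16.7% of all genes.

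Atp5d encodes the delta subunit of the F1 central stalk, the shaft that turns inside the catalytic head. Its normalized count ran from 12.4 to 222.8 in the 16 Val_LNA embryos (median 48.5) and from 57.5 to 251.7 in the 15 Ctrl_LNA embryos without 48 (median 135.8), and Ctrl_LNA 48 had 128.1. The groups overlapped, but 15 of 16 Val_LNA embryos lay below the median control and 10 of 16 below the lowest control. The means were 66.9 ± 53.4 (SD, n = 16) and 149.7 ± 63.9 (SD, n = 15), and the limma log2 fold change was -1.37 (SE 0.347, adjusted p = 0.0230), or -1.37 (SE 0.333, adjusted p = 0.0107) without Ctrl_LNA 48. It stayed called in each of the 32 limma fits that left out 1 embryo (log2 fold changes from -1.51 to -1.24, highest adjusted p = 0.0446). By edgeR the log2 fold change was -1.21 with an adjusted p of 0.0802, and without Ctrl_LNA 48 it was -1.22 with 0.0472, where 1.61% of all genes were called lower. The gene lies on chromosome 10 (GRCm38, 80138632 to 80145818, plus strand), and 3.53% of its exon bases overlap Cbarp on the opposite strand.

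None of the other F1 genes (Atp5a1, Atp5b, Atp5c1 and Atp5e) was called by limma, edgeR or DESeq2. Atp5c1, the gamma subunit beside it in the stalk, had 642 ± 165 in Val_LNA and 664 ± 182 in Ctrl_LNA without 48 (log2 fold change -0.02 with all embryos, adjusted p = 0.967 by limma). Atp5b had 4085 ± 779 and 3452 ± 645, above the median control in 14 of 16 Val_LNA embryos. Its log2 fold change of 0.34 (SE 0.137, limma adjusted p = 0.235) did not pass the test. The difference between the change of Atp5d and that of these genes was not tested.

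Ndufa1 encodes a small membrane subunit of complex I that is needed for its assembly, and it lies on the X chromosome (GRCm38, 37187588 to 37191163, minus strand). Its normalized count ran from 33.2 to 380.8 in Val_LNA (median 107.0) and from 8.12 to 168.4 in Ctrl_LNA without 48 (median 46.9), with 0 in Ctrl_LNA 48. The groups overlapped, with 15 of 16 Val_LNA embryos above the median control and 3 of 16 above the highest. The means were 133 ± 91.4 (SD, n = 16) and 60.0 ± 44.2 (SD, n = 15). The limma log2 fold change was 1.58 (SE 0.492, adjusted p = 0.0899) with all 32 embryos and 1.23 (SE 0.362, adjusted p = 0.0444) without Ctrl_LNA 48, and it was called in 1 of the 32 fits that left out an embryo. In edgeR the adjusted p was 0.287 with all embryos and 0.156 without Ctrl_LNA 48.

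Cox7b2, a testis form of a small complex IV subunit, was below the filter but was detected unevenly. It had reads in 3 of 16 Val_LNA embryos, with 18.3 normalized counts at most, and in 12 of 16 Ctrl_LNA embryos, with 26.9 at most and a median of 5.63 without Ctrl_LNA 48. In the limma fit without a filter its log2 fold change was -2.02 (SE 0.547, adjusted p = 0.0787), which did not pass. Its paralog Cox7b had 154 ± 63.1 in Val_LNA and 119 ± 71.2 in Ctrl_LNA without 48. Cox7b held from 83.4% to 100% of the pair in Val_LNA (median 100%) and from 0% to 100% in Ctrl_LNA without 48 (median 87.5%), again by the longest coding transcript. It was the higher gene in 16 of 16 and 14 of 15 embryos. The 0% was that of Ctrl_LNA 32, with 0 normalized counts of Cox7b and 4.51 of Cox7b2.

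**Figure D3:**
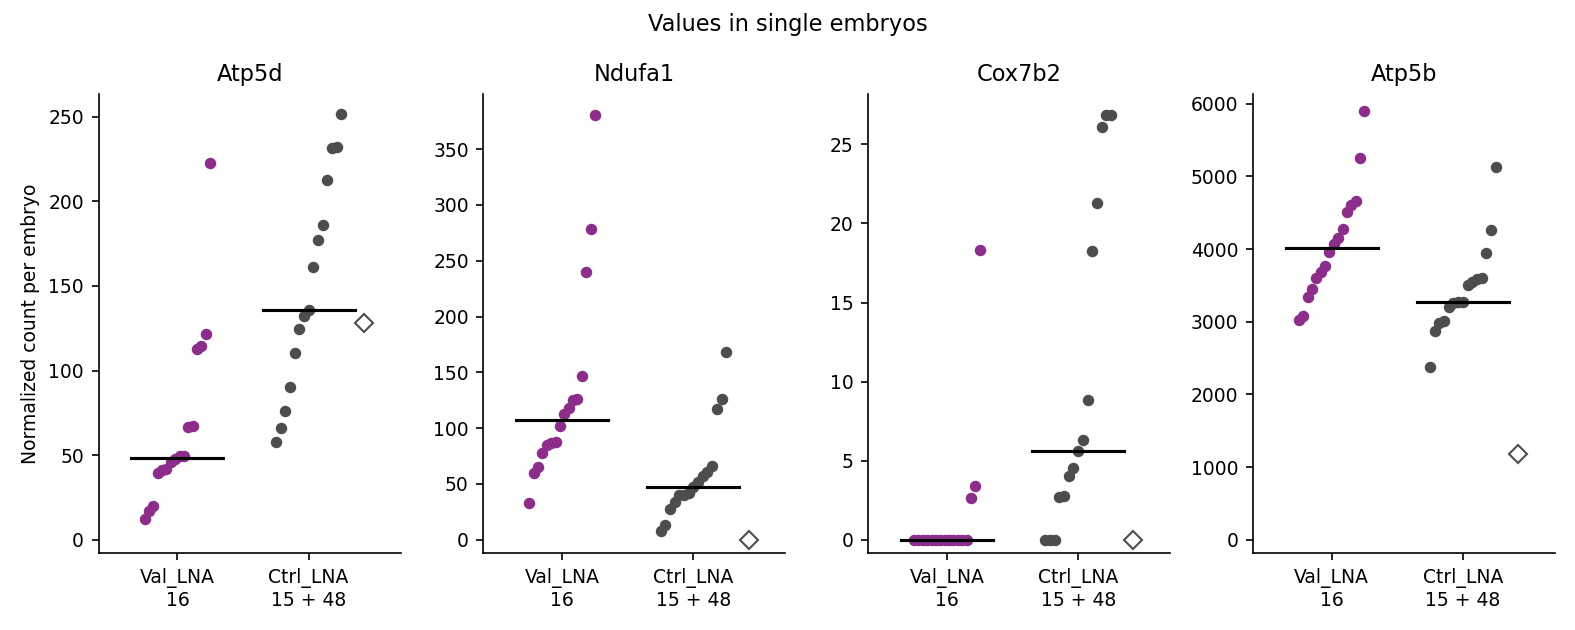
Normalized counts of Atp5d, Ndufa1, Cox7b2 and Atp5b in each embryo, with 16 Val_LNA embryos, 15 Ctrl_LNA embryos, the median of each as a black line, and Ctrl_LNA 48 as an open diamond. For Atp5d 10 Val_LNA embryos lie below every control, and for Cox7b2 only 3 Val_LNA embryos are above 0.

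In complexes II, III and IV the direction of the median log2 fold change depended on Ctrl_LNA 48 or on the tool. In limma, edgeR and DESeq2, with and without that embryo, the median was above 0 in complex I and below 0 in complex V. With all 32 embryos the median over the 79 genes was 0.27, beside 0.26 over all genes tested. Above 0 were 54 of the 79, beside 64.3% of all tested genes. Without Ctrl_LNA 48 the median was 0.04, beside 0.07 over all genes, and 42 of the 79 were above 0, beside 54.2% of all tested genes. Complex I went from a median of 0.39 (29 of 36 above 0) to 0.12 (24 of 36), complex II from 0.15 (2 of 4) to -0.02 (1 of 4), complex III from 0.21 (6 of 8) to 0.02 (4 of 8) and complex IV from 0.21 (10 of 14) to -0.07 (6 of 14). Complex V had a median below 0 both times, -0.14 and -0.10, with 7 of 17 genes above 0 in each. In edgeR with all 32 embryos the medians of complexes I to V were 0.09, -0.21, -0.26, -0.01 and -0.19 (all genes 0.04), and in DESeq2 0.21, -0.14, -0.17, 0.12 and -0.12 (all genes 0.14), so that complexes II and III were below 0 in both. Centring each embryo on its median gene moved the median over all genes to -0.19 and those of the complexes to values between -0.59 (complex V) and -0.06 (complex I). This centring shifts the log2 fold changes of all genes by the same amount. Since 58.2% of tested genes were at 0 in Ctrl_LNA 48, its median gene was 0 and its own values were not shifted. The difference between complexes was not tested, since genes of a complex are measured in the same embryos and are not replicates.

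Within complex V, the 4 peripheral stalk genes are Atp5f1, Atp5h, Atp5j and Atp5o. With or without Ctrl_LNA 48, 0 of the 4 had a log2 fold change above 0 (medians -0.28 and -0.20). Over all tested genes 64.3% and 54.2% were above 0. These 4 genes were singled out after their values were seen, and none of them was called by limma, edgeR or DESeq2. Atp5h has 3 near-identical copies in the genome and Atp5o has 1, so that reads may be shared with them. Both genes of the F1 head were above 0 (medians 0.19 and 0.16). So were Atp5s and Atp5sl (medians 0.71 and 0.54).

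In complex I, 6 of the 7 electron path genes and 22 of the 28 accessory genes were above 0 with all embryos, beside 64.3% of all tested genes. Without Ctrl_LNA 48 these were 5 and 18, beside 54.2%. Ndufs4, an accessory subunit near the NADH-binding arm, had the highest value of the complex. It ran from 0 to 96.7 in Val_LNA (median 21) and from 0 to 44.9 in Ctrl_LNA without 48 (median 6.34), a log2 fold change of 1.75 (limma adjusted p = 0.168). Ndufa12, which takes a late place in assembly, had the lowest value, -0.95 (limma adjusted p = 0.549), with 0 reads in 3 Val_LNA embryos and 1 control. Neither passed the test. Ndufa4 had 587 ± 448 in Val_LNA and 330 ± 189 in Ctrl_LNA without 48, with a log2 fold change of 1.03 (limma adjusted p = 0.228).

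In complex II all 4 genes overlapped widely. Sdha had 525 ± 351 in Val_LNA and 538 ± 429 in Ctrl_LNA without 48, and the log2 fold changes ran from -0.22 (Sdhb, the iron-sulfur subunit) to 0.59 (Sdhc, a membrane anchor) with all embryos and from -0.58 (Sdhd) to 0.18 (Sdhc) without Ctrl_LNA 48. In complex III the lowest value of all 79 genes belonged to Uqcrc1, a core protein on the matrix side. It ran from 0 to 590.1 in Val_LNA (median 131) and from 13.5 to 587.7 in Ctrl_LNA without 48 (median 303), and Ctrl_LNA 48 had 2840. Its log2 fold change was -1.77 with all embryos (limma adjusted p = 0.228) and -1.54 without Ctrl_LNA 48 (limma adjusted p = 0.239), and 12 of 16 Val_LNA embryos lay below the median of the 15 other controls. Uqcrh, the hinge protein that contacts cytochrome c1, had the highest value of complex III, 0.74 (limma adjusted p = 0.407).

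In complex IV the values ran from -0.52 for Cox4i1 (limma adjusted p = 0.320) to 1.17 for Cox7b (limma adjusted p = 0.360). Cox4i1, the common form of the largest nuclear subunit, had 437 ± 185 in Val_LNA and 601 ± 249 in Ctrl_LNA without 48, and 14 of 16 Val_LNA embryos lay below the median control. Cox6b2 had 683 ± 289 and 470.1 ± 168 (log2 fold change 1.07, or 0.52 without Ctrl_LNA 48, limma adjusted p = 0.362 and 0.166), while Cox6b1 had 332 ± 161 and 286 ± 109 (0.13 and 0.18).

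**Figure D4:**
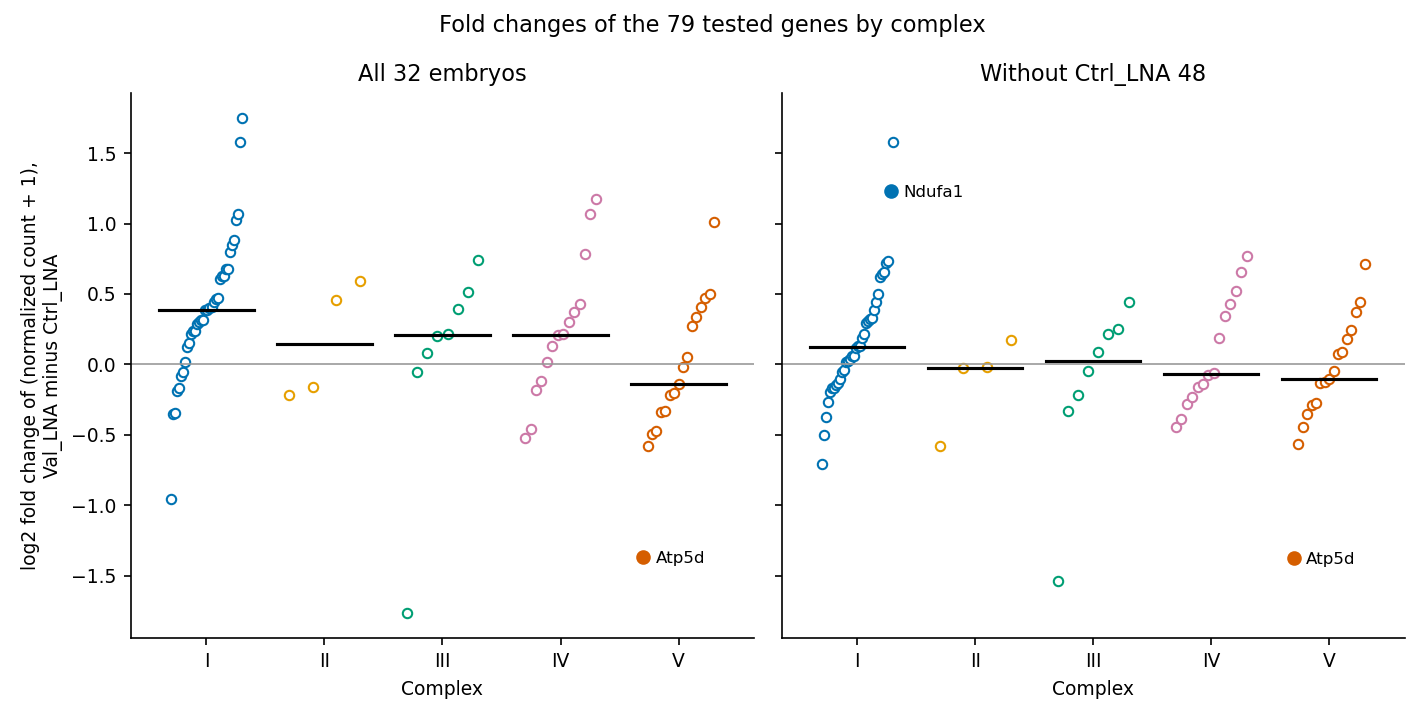
Log2 fold change of (normalized count + 1), Val_LNA minus Ctrl_LNA, of the 79 tested genes by complex, with all 32 embryos (left) and without Ctrl_LNA 48 (right). Filled points are genes called by limma (Atp5d on the left, Atp5d and Ndufa1 on the right), open points are not called, and black lines are medians, which move toward 0 on the right in complexes I to IV.

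In Ctrl_LNA 48 many of the 84 genes had no reads and others stood above every other control. It had no reads for 41 of 84 (48.8%), among them 23 of 37 in complex I, 2 of 4 in complex II, 3 of 8 in complex III, 10 of 18 in complex IV and 3 of 17 in complex V. Of the tested genes 36 of 79 (45.6%) were at 0 there, beside 58.2% of all tested genes. Another 24 of the 79 (30.4%) were higher there than in every other control embryo, beside 15% of all tested genes. Uqcrfs1 and Cox6b2, with medians of 437 and 472 in the other controls, were at 0, and Sdha had 1.05. The genes together still made up 0.419% of its counts, within the range of the other controls. By complex, its share for complex I (0.0636%) lay below their lowest (0.0673%), and that for complex III (0.0697%) above their highest (0.0627%). Its shares for complexes II, IV and V lay within their ranges. The cause of the pattern in this embryo was not tested.

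**Figure D5:**
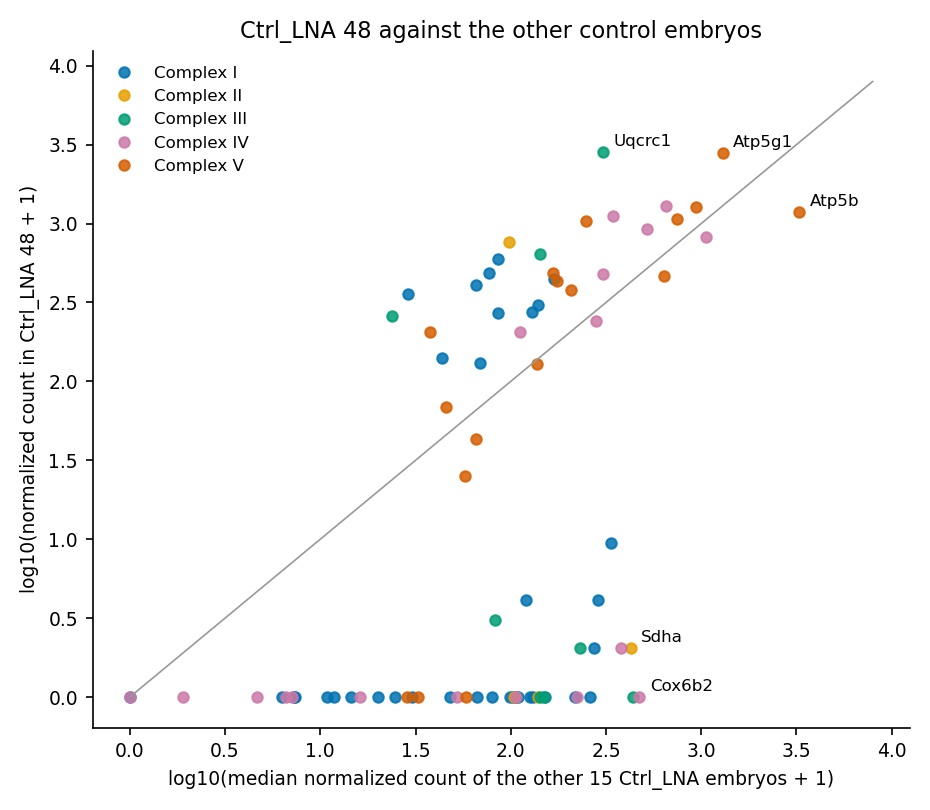
Normalized count of each of the 84 genes in Ctrl_LNA 48 against its median in the other 15 Ctrl_LNA embryos, both as log10(normalized count + 1), coloured by complex, with a grey line where both are equal. The 41 genes on the bottom line had no reads in Ctrl_LNA 48, and Uqcrc1 lies far above the grey line.

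The library numbers in the labels form a lower and an upper run in each group (Val_LNA 1 to 8 and 13 to 20, Ctrl_LNA 31 to 38 and 43 to 50), which the labels do not call batches. For Atp5d the log2 fold change was -1.11 in the lower runs and -1.63 in the upper runs (limma adjusted p = 0.403 and 0.353, n = 8 and 8 in each), the same direction in both. For Ndufa1 it was 1.85 and 1.31, and 0.56 in the upper runs without Ctrl_LNA 48. The median over the 79 genes was 0.20 in the lower runs, 0.22 in the upper runs and -0.18 in the upper runs without Ctrl_LNA 48, beside 0.03, 0.44 and 0.07 over all genes. The test of the difference between the runs, an interaction term in limma, called 0 genes (lowest adjusted p among the 79 = 0.817), and 1 of 79 (1.27%) had an unadjusted p under 0.05, where 5.19% of all genes did. Without Ctrl_LNA 48 these were 0 called, 1 of 79 (1.27%), and 5.91% of all genes.

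Genes around the respiratory chain were read from lists of related function. Of the 13 mitochondrially encoded subunits mt-Co2, mt-Atp6 and mt-Atp8 did not pass the filter on low values. The other 10 were tested and 0 called by limma, edgeR or DESeq2, with 2 (20%) at an unadjusted p under 0.05 in limma, beside 14.7% of all tested genes. The smallest p was that of mt-Co1, the catalytic subunit of complex IV, with 31080 ± 7188 in Val_LNA and 25310 ± 4555 in Ctrl_LNA without 48 (log2 fold change 0.33, limma adjusted p = 0.124). The reads of these genes do not keep the strand, so neighbouring and opposite transcripts of the mitochondrial genome are counted together where they overlap. Of 10 tested subunits and carriers outside the symbol rule 0 were called by the 3 tools, with 1 (10%) at an unadjusted p under 0.05 in limma, Coq10b, which binds coenzyme Q (log2 fold change 1.04, or 0.59 without Ctrl_LNA 48). Of the 7 tested carriers and pores that exchange ATP, ADP and phosphate 0 were called by the 3 tools and 0 had an unadjusted p under 0.05. The smallest p there was that of Slc25a31, the germ cell form of the ADP/ATP carrier (102 ± 46.9 and 93.3 ± 46.7).

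Of 43 tested assembly factors of complexes I to V, 0 were called by limma with all embryos (and 0 by edgeR or DESeq2), and 6 (14%) had an unadjusted p under 0.05, beside 14.7% of all tested genes. Without Ctrl_LNA 48, Ecsit, which helps build the membrane arm of complex I, was lower in Val_LNA. It ran from 6.38 to 329.7 in Val_LNA (median 53.2) and from 73.6 to 591.2 in the 15 controls (median 159), with 11 of 16 Val_LNA embryos below the lowest control. Ctrl_LNA 48 had 0. Its log2 fold change was -1.79 without that embryo (SE 0.415, limma adjusted p = 0.00699) and -1.32 with it (limma adjusted p = 0.303). In edgeR without Ctrl_LNA 48 the adjusted p was 0.0629.

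Of 13 tested transcriptional regulators of respiratory genes, limma called 1 lower and 0 higher with all embryos and 2 lower without Ctrl_LNA 48, beside 1.31% and 2.61% of all tested genes called lower. At an unadjusted p under 0.05 there were 6 (46.2%) and 7 (53.8%), beside 14.7% and 16.7%. The same 2 regulators, Sp1 and Gabpb2, were called by edgeR and by DESeq2. Sp1, a zinc finger factor that binds GC boxes of many housekeeping promoters, ran from 4.68 to 255.2 in Val_LNA (median 108) and from 195.2 to 719.2 in Ctrl_LNA without 48 (median 373), and Ctrl_LNA 48 had 377.1. The groups overlapped at their edges only, with 12 of 16 Val_LNA embryos below the lowest of the 15 controls. Its log2 fold change was -2.12 (SE 0.436, limma adjusted p = 0.00370), and edgeR called it too (adjusted p = 0.0223). Gabpb2, a partner subunit of the ETS factor GABP (also called NRF-2), had a median of 43.8 in Val_LNA and 182 in Ctrl_LNA without 48, with 10 of 16 Val_LNA embryos below the lowest of those controls. It was lower by limma without Ctrl_LNA 48 (log2 fold change -2.44, SE 0.437, adjusted p = 0.000505) and not with it (-2.02, adjusted p = 0.0573), while edgeR called it with all embryos (adjusted p = 0.0188). Nrf1, the nuclear respiratory factor, had 614 ± 389 in Val_LNA and 622 ± 377 in Ctrl_LNA without 48 (log2 fold change -0.22, limma adjusted p = 0.801), and Gabpa, the DNA-binding subunit of GABP, had 1354 ± 839.7 and 2028 ± 729 (-1.04, limma adjusted p = 0.222).

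RefSeq promoter windows of build GRCm38.p6, from 250 bases before to 50 after a start, were found by symbol for 66 of the 84 genes (71 windows). They were searched on both strands for short motifs known for factors that act on respiratory genes. The core GCATGCGC of the NRF1 motif was in 14.1% of the windows of these genes, beside 2.71% of all 32851 windows. The ETS motif CCGGAAG was in 22.5%, beside 8.86%, and the motif AAGATGG of YY1 also in 14.1%, beside 6.34%. The GC box GGGCGG was in 38%, beside 35.7%. By gene, the NRF1 core was found in 3 of 32 genes of complex I, 1 of 3 of complex II, 2 of 5 of complex III, 1 of 13 of complex IV and 3 of 13 of complex V. Tested genes with a GC box (25) had a median log2 fold change of 0.30 with all embryos and -0.03 without Ctrl_LNA 48, and those without one (39) had 0.22 and 0.04. For the ETS motif these were 0.11 and -0.03 with it (16 genes) and 0.31 and 0.06 without it (48 genes). For the YY1 motif they were 0.09 and -0.17 with it (10 genes) and 0.29 and 0.05 without it (54 genes). For the NRF1 core they were 0.16 and 0.03 with it (10 genes) and 0.31 and 0.03 without it (54 genes). A match is a description of letters and not a bound site.

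The bases upstream of a RefSeq start of 5 genes are printed to show this difference, with matches of any of the 4 motifs in capitals, each read 5′ to 3′ on the strand of its gene. Cox6a1 (chr5:115348959-115349208, minus strand) has 2 NRF1 matches, 1 ETS match and 2 GC boxes. The 2 NRF1 matches overlap and are 1 stretch of letters, matched once on each strand. Of the Cox6b pair, a separate paralog set, the common form Cox6b1 (chr7:30626115-30626364, minus strand) has 1 ETS match. The testis-type Cox6b2 (chr7:4753095-4753344, minus strand), at a higher level in these embryos, has 1 GC box. The called genes are Atp5d (chr10:80142025-80142274, plus strand, the first of its 2 windows), with 0 matches, whose start lies inside the span that GENCODE gives the gene, and Ndufa1 (chrX:37191239-37191488, minus strand), with 1 GC box. No match says only that these letters are not in this stretch.
Cox6a1: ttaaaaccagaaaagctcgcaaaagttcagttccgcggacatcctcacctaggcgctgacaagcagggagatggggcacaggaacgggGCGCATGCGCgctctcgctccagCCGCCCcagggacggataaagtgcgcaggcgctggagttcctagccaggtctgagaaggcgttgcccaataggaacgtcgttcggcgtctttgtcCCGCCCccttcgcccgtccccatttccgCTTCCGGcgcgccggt
Cox6b1: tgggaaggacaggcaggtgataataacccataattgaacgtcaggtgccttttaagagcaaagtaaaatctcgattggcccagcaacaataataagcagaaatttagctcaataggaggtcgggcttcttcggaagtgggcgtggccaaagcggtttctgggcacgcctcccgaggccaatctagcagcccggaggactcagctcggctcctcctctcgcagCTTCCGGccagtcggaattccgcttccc
Cox6b2: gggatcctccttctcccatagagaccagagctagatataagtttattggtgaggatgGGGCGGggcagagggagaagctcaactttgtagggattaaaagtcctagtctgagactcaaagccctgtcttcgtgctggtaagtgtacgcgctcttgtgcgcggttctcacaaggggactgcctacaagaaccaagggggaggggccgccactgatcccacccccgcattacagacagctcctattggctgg
Atp5d: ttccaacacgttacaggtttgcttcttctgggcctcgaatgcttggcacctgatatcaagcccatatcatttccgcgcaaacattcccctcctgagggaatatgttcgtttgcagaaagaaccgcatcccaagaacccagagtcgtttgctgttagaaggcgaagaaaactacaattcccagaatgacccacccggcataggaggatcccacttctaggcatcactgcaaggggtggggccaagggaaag
Ndufa1: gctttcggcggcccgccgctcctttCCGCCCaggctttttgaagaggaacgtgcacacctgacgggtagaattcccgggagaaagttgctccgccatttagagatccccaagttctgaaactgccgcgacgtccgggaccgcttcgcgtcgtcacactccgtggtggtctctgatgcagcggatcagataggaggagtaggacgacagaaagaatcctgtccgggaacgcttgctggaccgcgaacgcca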

How the data were processed

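The deposited table gives a signal per gene and embryo: per the file headers the authors normalized counts with DESeq, and the size factors they used were deposited beside it. Submitters' processing notes name Bowtie2, STAR, SAMtools, DESeq2 and build mm10; their versions and the annotation are not stated there. Multiplying back by the size factors gave whole reads for 1095136 of 1095136 values (100%, within 0.01 of a read). The libraries carry no molecular identifiers or strand, so PCR copies count separately. Depth limits precision for genes near 0. No 2 libraries of a group agreed within sampling noise (chi-square per gene at least 17.4 in 240 pairs).

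Values were tested as log2(value + 1) with limma 3.58.1 (trend, robust, R 4.3.3) over 15559 genes with at least 10 in at least 8 of 32 embryos. A log2 fold change is Val_LNA minus Ctrl_LNA on that scale, which understates changes of low genes. Alternatives were edgeR 4.0.16 (quasi-likelihood), DESeq2 1.42.0, other scalings, filters and embryos. On simulated data (14969 genes) limma recovered 35% of changes of log2 size 1 and 86% of size 2. GENCODE M21 (GRCm38), which matched 34179 of 34223 identifiers (99.9%), gave coordinates and lengths; the union of exons includes retained introns. Near copies were sought by blastn (95% identity over 50% of the transcript): 7 of the 84 genes have them, and 29 share exon bases with another gene, 3 of them over 25%. Tables and figures used Python 3.11.15, pandas 2.3.3, numpy 2.4.6 and matplotlib 3.10.9.

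Genes were named where called, where highest or lowest in fold change, p or level within a complex, or where in a paralog set (36 genes); in other lists, the called genes or the one with the smallest p. Cox5a, Ndufv2, Atp5a1, Atp5e, Atp5sl, the peripheral stalk genes, mt-Co2, mt-Co3, mt-Atp6, mt-Atp8, Nrf1, Gabpa and the marker genes were added after their values were seen. So was the NRF1 core, which replaced a longer form of the motif. The genes and lists were chosen with earlier results of these data known. The listed 2010107E04Rik, Ndufaf8 and Fmc1 are not analysed here.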

Additional observations from a re-analysis of the deposited data

How the results depend on the processing

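The genes called higher in Val_LNA numbered 0 with limma on all embryos, 1 with a pseudocount of 10 (Ndufa1), 1 with array weights (Ndufv2), 1 without Ctrl_LNA 48 (Ndufa1) and 2 with DESeq2 without Ctrl_LNA 48 (Ndufv2 and Ndufa1), of 79 each time. Of all tested genes 1.3%, 2.27%, 1.58% and 1.71% were called higher in these 4 fits. Leaving out each embryo in turn gave 0 to 1 higher and 1 to 1 lower. The genes called lower numbered 1 (Atp5d) and became 0 with edgeR, with no filter on low values (adjusted p = 0.0579 by limma), in the lower runs, in the upper runs, and in the upper runs without Ctrl_LNA 48; the 3 fits on runs hold fewer embryos, and for the others the cause was not tested. Atp5d had a log2 fold change below 0 in every one of these fits. Centring, which shifts all genes by the same amount, moved the median of complex V to -0.587 and that of all tested genes to -0.192. With the longest annotated transcript as the length, the median per kb was 63.18 in complex I, 141.1 in III and 104.6 in V. With the longest protein-coding transcript, added after seeing the data, it was 71.17 in I, 97.87 in II, 208.6 in III, 193.9 in IV and 145.9 in V. The fits of edgeR, DESeq2 and the upper runs without Ctrl_LNA 48, and the leave-one-out fits of the other embryos, were also added after seeing the data. No paired analysis was possible because the groups share no replicate numbers. Changes of log2 size 1 can be missed here, since limma recovered 35% of them on simulated data. Those data held no embryo like Ctrl_LNA 48 and no changes in genes of low level.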
